A study of Penicillium oxalicum with 6 samples.

Results

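In RNA sequencing of Penicillium oxalicum, 74 of 9834 genes (0.752%) had an expected count more than 0.005 away from a whole number in at least 3 of 6 libraries. These genes were chosen by the decimals of their counts alone, so the decimals are given as a description and were not tested. Penicillium oxalicum is a mould that breaks down plant cell walls with secreted enzymes. The libraries came from strain MuPOX05503, a mutant of the gene POX05503 (3 libraries), and from strain Ku70, a mutant of Ku70 (3 libraries). Both strains were shaken for 24 h at 28 °C and 180 rpm, with 1.0 g of mycelium in 100 mL of liquid medium. The medium held 1% Avicel, a microcrystalline cellulose, and the series concerns protein kinases and cellulase and xylanase expression. Whether MuPOX05503 was made in a Ku70 background is not stated, although the protocol for all libraries starts from Ku70 mutant spores. It is not stated either that the libraries of a strain are separate cultures, and p-values below therefore cover the spread between libraries, which may be technical.

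An expected count is an estimate of the reads that come from a gene. A short read from a stretch that several genes share aligns equally well to each of them. Estimators of the RSEM kind divide such a read among the candidates by expectation maximisation, guided by the reads that align to only 1 of them, and the portions need not be whole. Near-identical genes arise by duplication and in mobile elements. Ku70 belongs to the machinery that joins broken DNA ends, and its loss is a common aid to gene replacement in moulds.

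No sequence of these genes was used here, so near-identity was not checked directly. The identifiers carry no gene names, and 0 of 9834 were found among the RefSeq genes of assembly ASM172317v3. Roles are therefore not given for any member, and identifiers are printed for a few members only. The genes are described below as genes with counts that are not whole.

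The libraries held 13653016 to 14263916 expected counts, and 9403 to 9451 genes were above 0. POX05503 had an expected count of 0 in every MuPOX05503 library, against 539, 529 and 470 in the Ku70 libraries. No pair of libraries was identical, and chi-square per degree of freedom between libraries of a strain was 9.54 to 42.5.

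The decimals separated into a small and a large kind. In 14 members no library was more than 0.04 away from a whole number, while each of the other 60 was at least 0.20 away in some library. Of the 74 members, 45 had counts that were not whole in all 6 libraries and 13 in exactly 3. The 13 genes just inside the rule had a median mean FPKM (a count scaled to gene length and library depth, averaged over the 6 libraries) of 5.95, within 0.108 to 184 FPKM. The 41 genes just outside it, with counts that were not whole in 2 libraries, had a median of 9.65, within 0 to 3198 FPKM. A distance over 0.05 was reached by 5 of those 13 and by 13 of those 41. In 3 members the decimals appeared in the 3 libraries of 1 strain and in none of the other.

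The members reached both ends of the expression range. Their median mean FPKM was 14.1, against 23.6 over all 9834 genes, and they ran from 0.108 to 78270. A mean FPKM of at least 10 was found for 41 members (55.4%, against 69.7% of all genes). At least 100 was found for 13 members (17.6%, against 15.9%), and at least 1000 for 5 members (6.76%, against 1.45%). These 5 were among the 100 genes with the highest mean FPKM. Among the 43 members with a mean FPKM of at least 5 in both strains, the median coefficient of variation between libraries was 11.8% in MuPOX05503 and 11.2% in Ku70, against 8.35% and 8.43% over 7191 genes.

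Few members were near silent. An FPKM under 1 in all 6 libraries was found for 5 members (6.76%), against 758 of all genes (7.71%). Their FPKM reached at most 0.90 and their mean expected counts lay between 1.1 and 11.97. By another measure, an expected count under 10 in all 6 libraries, 4 members were near silent (5.41%, against 9.43% of all genes), and 3 members were so by both. The rule itself limits this count, because a gene needs at least part of a read to have decimals. None of the 128 genes listed at an FPKM of 0 in all libraries was a member, although a listed 0 can hide a fraction of a read. A count above 0 in every library was found for 67 members, and the other 7 were at 0 in some library.

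The members held a larger share of all expected counts in MuPOX05503 than in Ku70. The share was 7.95%, 8.28% and 8.57% in the MuPOX05503 libraries, against 4.22%, 3.77% and 3.93% in the Ku70 libraries. The strains did not overlap, and the means were 8.27% ± 0.309 in MuPOX05503 and 3.97% ± 0.229 in Ku70 (SD, n = 3 each), a ratio of 2.08. This share was not tested, since it is a score over chosen members. In RNA from whole mycelium, fewer cells of a type and less RNA per cell cannot be told apart.

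POX01764 held the largest part of these counts. This gene had the highest mean FPKM of all genes in the tables. Its share of all expected counts was 5.40% ± 0.228 in MuPOX05503 and 2.01% ± 0.0948 in Ku70 (SD, n = 3 each), a ratio of 2.69. It accounted for 65.3% ± 2.25 of the members' counts in MuPOX05503 and for 50.5% ± 1.94 in Ku70, where it ranged from 48.9% to 52.7% between libraries.

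Without POX01764 the other 73 members held 2.61%, 3.08% and 2.92% of the counts in MuPOX05503 and 2.11%, 1.78% and 2.01% in Ku70. The strains still did not overlap, and the ratio of the means, 2.87% ± 0.240 in MuPOX05503 and 1.97% ± 0.168 in Ku70, was 1.46. POX08949 carried much of this remainder, with 1.35% ± 0.215 of all counts in MuPOX05503 and 0.831% ± 0.164 in Ku70. Without both genes the share was 1.52% ± 0.0256 in MuPOX05503 and 1.14% ± 0.0397 in Ku70, a ratio of 1.33. This remainder still held POX01651, the partner of POX01764 described below. It had 57679, 50605 and 53145 expected counts in MuPOX05503, against 17000, 16559 and 13959 in Ku70. With the 7 genes of the 3 most counted groups described below left out, the share was 0.328% ± 0.0216 in MuPOX05503 and 0.281% ± 0.0131 in Ku70. In FPKM, which corrects for length, the members' share of the library sum was 13.9% ± 0.473 in MuPOX05503 and 6.18% ± 0.358 in Ku70. Without POX01764 it was 2.76% ± 0.136 in MuPOX05503 and 1.86% ± 0.0991 in Ku70.

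**Figure D1:**
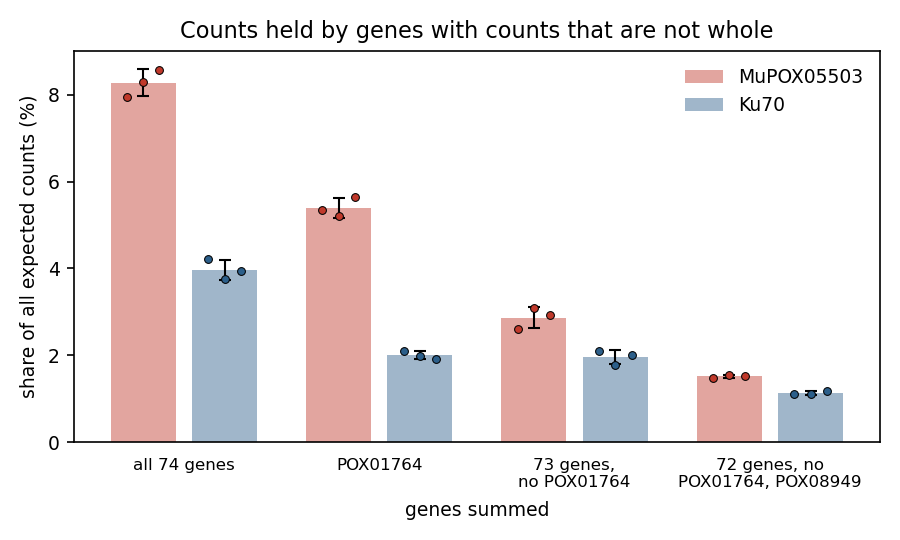
Share of all expected counts (%, y axis) held by all 74 members, by POX01764, and by the members without it and without POX08949 as well (x axis). Bars are means, error bars are SD over 3 libraries and points are libraries; every MuPOX05503 library lies above every Ku70 library in each of the 4 sets.

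The members gathered at the high end of the identifier numbers. Identifiers ran to 9834, and the members' numbers from 1651. Of the 834 genes numbered 9001 and above, 34 were members (4.08%), against 0.444% of the genes numbered below 9001. Those 34 were 45.9% of the members, while such numbers made up 8.48% of all genes. Below 9001, each bin of 1000 numbers held 0 to 8 members. What the numbers stand for is not given in the labels, so distance in number was not read as distance on a chromosome.

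Spacing was uneven. Between neighbouring members the median step in number was 32. An even spread over all identifiers would give steps of 133. That value is a mean, and a random spread would have a lower median step, so it is not directly comparable with the 32. Of 73 steps, 5 were of 1, 28 were of at most 10 and 28 were over 100, and the widest was 842. Members numbered 9001 and above had a median mean FPKM of 6.16, against 15.03 over all genes with such numbers. Members numbered below 9001 had a median of 29.4, against 24.2 over all such genes. The highest of the 34 reached a mean FPKM of 84.8, so the highly expressed members all lay below 9001. Of the 5 near-silent members, 4 were among the 34 numbered 9001 and above. Of all genes with such numbers, 14.3% were near silent.

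**Figure D2:**
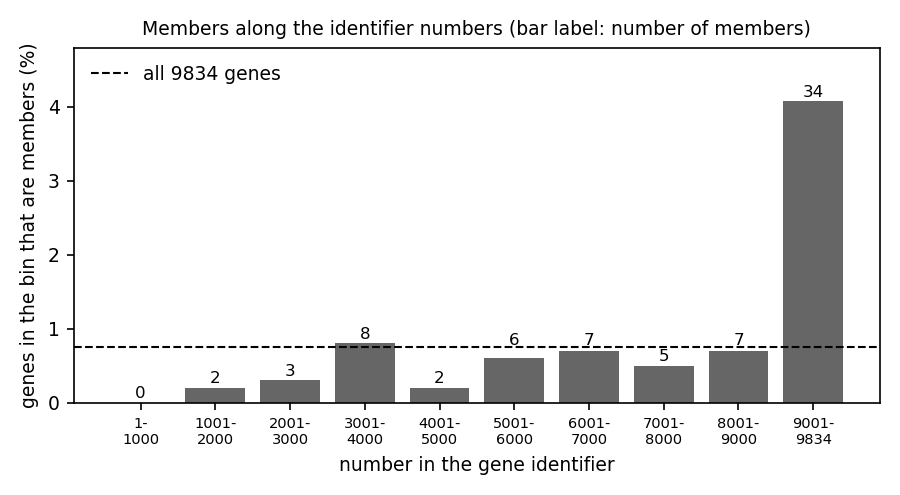
Percentage of genes that are members (y axis) in bins of the identifier number (x axis), with the number of members over each bar. The dashed line is the 0.752% over all 9834 genes; the last bin, 9001 to 9834, holds 34 members, or 4.08% of its genes.

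The members were short by the length that the deposited count and FPKM imply together. The median was 750 bases, against 1168 over all genes with such a length. The 60 members with large decimals had a median of 585 bases, and the 14 with small decimals 2102 bases. Implied lengths, here and below, were not compared with annotated lengths and may differ from them.

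Several members had decimals that completed each other. When the reads of a stretch are divided among genes, the portions add up to a whole number. Among 2486 pairs of members searched, the sum was whole within 0.015 in all 6 libraries, with both counts not whole in at least 3, for 11 pairs. A further 3 groups of 3 genes and, in a search added after these were seen, 1 group of 4 genes met the same condition. These 15 groups took in 35 members, no gene was in more than 1 group, and their sums were at most 0.01 from a whole number. The other 39 members, which include all 14 with small decimals, completed no group of up to 4 genes by this rule.

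The genes of a group were not always of like length. In 7 groups the implied lengths differed by a factor under 1.1, and in 5 by a factor of 2 or more, up to 10.6. In 2 pairs the identifiers were 1 apart, and the numbers of the other groups spanned 6 to 3924. Of the 15 groups, 7 held only numbers of 9001 and above and 6 held none. In group 13, 2 genes had the same expected count as each other in every library: 12.75, 13.58 and 12.52 in MuPOX05503 and 2.88, 1.80 and 0 in Ku70.

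Differences between strains were tested with edgeR's quasi-likelihood test over the 8801 genes that reached an FPKM of 1 in 3 or more libraries. A gene passed at a Benjamini-Hochberg adjusted p under 0.05, and fold changes are MuPOX05503 over Ku70. Of the 74 members, 68 were tested, 41 passed (60.3%) and 27 did not, while 64.4% of all tested genes passed. Of the 68, 3 reached that FPKM in the MuPOX05503 libraries alone and 1 in the Ku70 libraries alone, so these had to differ to be tested. The members' share was thus near the background. Of the 41, 18 were higher in MuPOX05503 (26.5% of the tested members, against 31.9% of all tested genes) and 23 were lower (33.8%, against 32.6%). With scaling by library totals in place of TMM, which moved the median log2 fold change of all tested genes to 0.12, 22 members were higher and 19 lower. The strains did not overlap in FPKM for 44 tested members (64.7%), against 71.4% of all tested genes. Of these, 23 were higher (33.8%, against 41.6%) and 21 lower (30.9%, against 29.7%).

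Changes of at least 2-fold among those that passed were found for 27 members (39.7%), against 25.4% of all tested genes. Genes whose decimals completed each other are counted separately here, so these members are not independent of each other. Of the 15 sums of such groups, 5 passed with at least a 2-fold change. Among the 27 members, 14 were higher (20.6%, against 11.5%) and 13 lower (19.1%, against 13.9%). The 14 include the 3 members that reached an FPKM of 1 in the MuPOX05503 libraries alone. The 13 include the 1 that did so in the Ku70 libraries alone. As these had to differ to be tested, they raise the members' percentages. The median log2 fold change was -0.10 over the tested members and 0.01 over all tested genes, and the median size regardless of sign was 0.68 for members and 0.50 for all.

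The larger changes were mostly in members with high identifier numbers. Of 30 tested members numbered 9001 and above, 23 passed, 9 higher and 14 lower, and 19 did so at 2-fold or more. Among all tested genes with such numbers, 66.7% passed (33.9% higher and 32.8% lower), and 30.9% did so at 2-fold or more (14.4% higher and 16.5% lower). Of the 19 members, 8 were higher and 11 lower. Genes of a group are counted separately here too, with all 4 of group 5 and all 3 of group 13 among the 19, so the 19 are not independent. The limit of 9001 was set after the data were seen. Among these 19 were the 3 members that reached an FPKM of 1 in the MuPOX05503 libraries alone. The 1 member that did so in the Ku70 libraries alone was also among them. These members had to differ to be tested, so they raise the 19 and the median size given below. How many of all tested genes entered in that way is not given. Of 38 tested members below 9001, 18 passed, 9 in each direction, and 8 did so at 2-fold or more. Among all tested genes below 9001, 64.3% passed (31.7% higher and 32.6% lower), and 24.9% did so at 2-fold or more (11.2% higher and 13.7% lower). The median size of the log2 fold change was 1.63 in the members with high numbers and 0.38 in the others. The members with high numbers also had the lower FPKM, and the part of level in this difference was not tested.

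POX01764 rose in MuPOX05503 together with POX01651, the gene that completed its decimals. POX01764 had 739711, 710158 and 775134 expected counts in the MuPOX05503 libraries, against 301035, 279553 and 268230 in the Ku70 libraries. The strains were far apart relative to their spread, at a mean FPKM of 114067 ± 4821 in MuPOX05503 and 42473 ± 2037 in Ku70 (SD, n = 3 each). The log2 fold change was 1.31 (SE 0.15, adjusted p = 3.58e-05 by edgeR's quasi-likelihood test).

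POX01651 had 57679, 50605 and 53145 expected counts in MuPOX05503, against 17000, 16559 and 13959 in Ku70. Again no library of one strain reached the other, and the log2 fold change was 1.69 (SE 0.12, edgeR adjusted p = 1.76e-06). The implied lengths were 473 bases for POX01764 and 457 for POX01651. In FPKM, POX01764 was 13.3 times POX01651 in MuPOX05503 and 17.3 times in Ku70. Summed, the pair held 5.79% of all counts in MuPOX05503 and 2.12% in Ku70. The sum, which does not depend on how reads were divided between the 2 genes, was 2.53-fold higher (log2 fold change 1.34, SE 0.15, edgeR adjusted p = 3.55e-05).

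In group 2 by summed count the calls of the 2 genes went in opposite directions. POX08949 had 154672, 209857 and 193004 expected counts in MuPOX05503, against 142058, 94196 and 115272 in Ku70. The strains came close to each other, and the log2 fold change was 0.59 (SE 0.19, edgeR adjusted p = 0.0215). Leaving out replicate 2 or replicate 3 of either strain ended this call, with edgeR adjusted p from 0.0578 to 0.0817.

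Its partner had 13830, 13373 and 13514 expected counts in MuPOX05503, against 15559, 16492 and 16475 in Ku70. All 3 values were lower in MuPOX05503, and the log2 difference was -0.33 (SE 0.10, edgeR adjusted p = 0.0126). This call ended with scaling by library totals (edgeR adjusted p = 0.0780), on log2(FPKM + 1) with limma (adjusted p = 0.0505), and without replicate 3 of MuPOX05503 (edgeR adjusted p = 0.0554). The sum of the pair was 1.42-fold higher in MuPOX05503 (log2 fold change 0.51, SE 0.18, edgeR adjusted p = 0.0324). The call of the sum also ended without replicate 2 or replicate 3 of either strain (edgeR adjusted p from 0.0846 to 0.117). POX08949 took 93.1% ± 1.15 of the sum in MuPOX05503 and 87.6% ± 2.52 in Ku70.

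In groups 3 and 4, highly expressed as well, no gene passed, but 1 gene of group 3 did so with scaling by library totals (log2 fold change 0.31, edgeR adjusted p = 0.0489). The most counted gene of group 3, which has 3 genes, had a mean FPKM of 6294 ± 803 in MuPOX05503 and 5739 ± 369 in Ku70, a log2 fold change of 0.03. Its sum differed by 0.04 on the log2 scale (SE 0.13, edgeR adjusted p = 0.786). In group 4, 2 genes of the same implied length, 305 bases, divided their reads almost evenly: the more counted gene took 51.8% ± 2.59 in MuPOX05503 and 52.9% ± 1.86 in Ku70. Its sum differed by 0.03 (SE 0.12, edgeR adjusted p = 0.844). These first groups outweighed the rest: the 7 genes of the first 3 held 96.0% ± 0.371 of the members' counts in MuPOX05503 and 92.9% ± 0.658 in Ku70. The other 67 members together had 0.328% ± 0.0216 of all counts in MuPOX05503 and 0.281% ± 0.0131 in Ku70.

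The genes of group 5 were lower in MuPOX05503. POX09776 had 537.12, 407.32 and 422.40 expected counts in MuPOX05503, against 2940.55, 3190.89 and 3199.29 in Ku70. No MuPOX05503 library came near a Ku70 library, and its mean FPKM was 7.24 ± 1.08 in MuPOX05503 and 48.3 ± 2.76 in Ku70 (SD, n = 3 each). The log2 fold change was -2.85 (SE 0.11, edgeR adjusted p = 3.23e-08).

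POX09831 had 0.04, 0 and 0.02 expected counts in MuPOX05503, against 131.78, 132.37 and 102.37 in Ku70. It was without a whole read in any MuPOX05503 library, and it entered the test only through its FPKM in the Ku70 libraries, so its call is a description. With a floor of 3 counts over the 3 libraries, it was at least 119-fold lower when scaled by library totals, for counting error only. The other 2 genes of the group had log2 fold changes of -2.94 and -2.39. The 4 implied lengths differed by up to 10.6-fold, and the summed count averaged 621 ± 105 in MuPOX05503 and 4385 ± 188 in Ku70. The sum was 7.45-fold lower (log2 fold change -2.90, SE 0.12, edgeR adjusted p = 4.30e-08).

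The genes of group 6, both with an implied length of 432 bases, were slightly lower in MuPOX05503. The more counted gene had 545.54, 449.42 and 439.26 expected counts in MuPOX05503, against 490.53, 573.23 and 563.61 in Ku70, and did not pass (log2 fold change -0.26, edgeR adjusted p = 0.0504). It passed with edgeR's own filter (adjusted p = 0.0490) and without replicate 1 of MuPOX05503 (edgeR adjusted p = 0.0129) or of Ku70 (edgeR adjusted p = 0.0321). Its partner, with 395.46, 324.58 and 401.74 in MuPOX05503 and 410.47, 521.77 and 425.39 in Ku70, passed (log2 fold change -0.35, edgeR adjusted p = 0.0308). In FPKM the strains overlapped for both genes, and the partner's call ended with scaling by library totals (edgeR adjusted p = 0.125), with limma on log2(FPKM + 1) and log2(FPKM + 0.1) (adjusted p = 0.145 and 0.161), and without replicate 2 of MuPOX05503 (edgeR adjusted p = 0.107) or of Ku70 (edgeR adjusted p = 0.128). The sum fell by 0.30 on the log2 scale (SE 0.10, edgeR adjusted p = 0.0237). This call ended without replicate 2 or 3 of either strain (edgeR adjusted p from 0.0520 to 0.0929).

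Of the 5 lowest fold changes, those outside group 5 were a pair of members that missed the rule for groups in 1 library, both with an implied length of 523 bases. One had an FPKM of 2, 0.88 and 1.37 in MuPOX05503, against 10.09, 8.96 and 11.95 in Ku70. The other had 2, 2.06 and 1.83 in MuPOX05503, against 9.12, 11.15 and 12.09 in Ku70. The strains did not overlap in either, and the log2 fold changes were -2.99 (SE 0.26, edgeR adjusted p = 6.36e-06) and -2.57 (SE 0.20, edgeR adjusted p = 2.95e-06). Their counts added up to 29.00, 21.00 and 23.00 in MuPOX05503, against 143.00, 148.00 and 175.03 in Ku70, whole in 5 of the 6 libraries. A looser rule (whole within 0.025 in at least 5 libraries) took them as a group, and this sum was 6.70-fold lower in MuPOX05503 (log2 fold change -2.74, SE 0.17, edgeR adjusted p = 5.91e-07).

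Low groups 11, 12 and 13 rose. Their sums were 3.604-fold, 5.70-fold and 4.47-fold higher in MuPOX05503 (edgeR adjusted p = 4.51e-05, 3.95e-06 and 1.43e-05). Both genes of group 11 (log2 fold changes 2.36 and 1.70, SE 0.37 and 0.22) and the most counted gene of group 13 (1.93, SE 0.21) passed and did not overlap between strains (edgeR adjusted p = 0.000354, 8.87e-05 and 3.16e-05). In group 12 the calls of its genes differed. One had an FPKM of 33.73, 25.87 and 21.84 in MuPOX05503, against 2.69, 4.21 and 3.41 in Ku70, and rose by 2.88 on the log2 scale (SE 0.23, edgeR adjusted p = 2.89e-06). Its partner had 3.36, 1.52 and 2.51 in MuPOX05503, against 1.81, 1.59 and 2.42 in Ku70, and did not pass, at a log2 fold change of 0.16. The first thus stood clear of the other strain in every library, while the second overlapped it.

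In group 7 the direction of a gene and of the sum parted. The more counted gene had 694.47, 763.51 and 745.50 expected counts in MuPOX05503, against 765.20, 864.34 and 958.57 in Ku70. These overlapped in FPKM, and the gene passed as lower (log2 fold change -0.31, SE 0.10, edgeR adjusted p = 0.0245). That call ended without replicate 1 or 3 of MuPOX05503 or replicate 2 or 3 of Ku70 (edgeR adjusted p from 0.0582 to 0.0996), with scaling by library totals (edgeR adjusted p = 0.132) and with limma on the same scales (adjusted p = 0.180 and 0.183). Its partner had 81.53, 91.49 and 120.50 in MuPOX05503, against 11.80, 17.65 and 13.43 in Ku70, a difference of 2.68 on the log2 scale (SE 0.25, edgeR adjusted p = 8.99e-06). It reached an FPKM of 1 in the MuPOX05503 libraries alone, so it could enter the test only where it was high. Summed, the group had a log2 fold change of -0.15 and did not pass (SE 0.10, edgeR adjusted p = 0.235). The more counted gene took 88.3% ± 1.91 of the sum in MuPOX05503 and 98.4% ± 0.325 in Ku70.

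Of the 15 sums, 9 passed, 5 higher and 4 lower in MuPOX05503, and 6 did not. In that fit 64.5% of the tested genes and sums passed. In 2 groups, groups 2 and 7, calls of the genes went both ways. Groups 8 and 10 were lower, with sums at -0.71 (SE 0.10, edgeR adjusted p = 0.000185) and -0.70 (SE 0.19, edgeR adjusted p = 0.00812) in log2 fold change. The sums of groups 9, 14 and 15 did not pass, at -0.23, -0.40 and -0.36. Leaving out 1 library at a time left 7 to 10 sums past the threshold: those of groups 2 and 6 were lost in 4 of the 6 cases, and that of group 9 was gained in 2, without replicate 1 of either strain (edgeR adjusted p = 0.0214 and 0.0447).

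**Figure D3:**
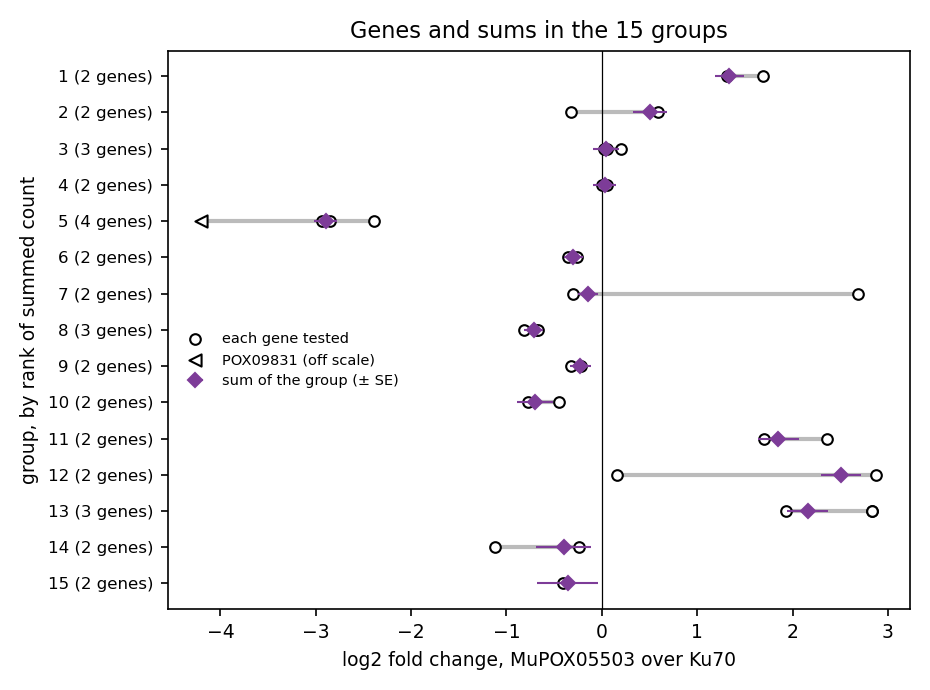
Log2 fold change of MuPOX05503 over Ku70 (x axis) for each tested gene of the 15 groups (open circles) and for the sum of the group (diamonds, ± SE from edgeR), ordered by summed count (y axis). POX09831 of group 5 is drawn off scale; genes and sum lie close together in groups 3 and 4, and far apart in groups 7 and 12.

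The division of counts within a group was also compared between strains. The share of the sum in the most counted gene did not overlap between strains in 5 of the 15 groups. For POX01764 it was 93.2% ± 0.421 in MuPOX05503 and 94.7% ± 0.326 in Ku70. The widest difference was 21.1 percentage points in group 12, at 94.6% ± 1.64 in MuPOX05503 and 73.6% ± 6.41 in Ku70 (SD, n = 3 each). A two-sided exact permutation test gave p = 0.1 for each of these 5, the smallest that 3 against 3 libraries allows, and 0.3 after Benjamini-Hochberg adjustment over 15 groups, so none could pass.

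**Figure D4:**
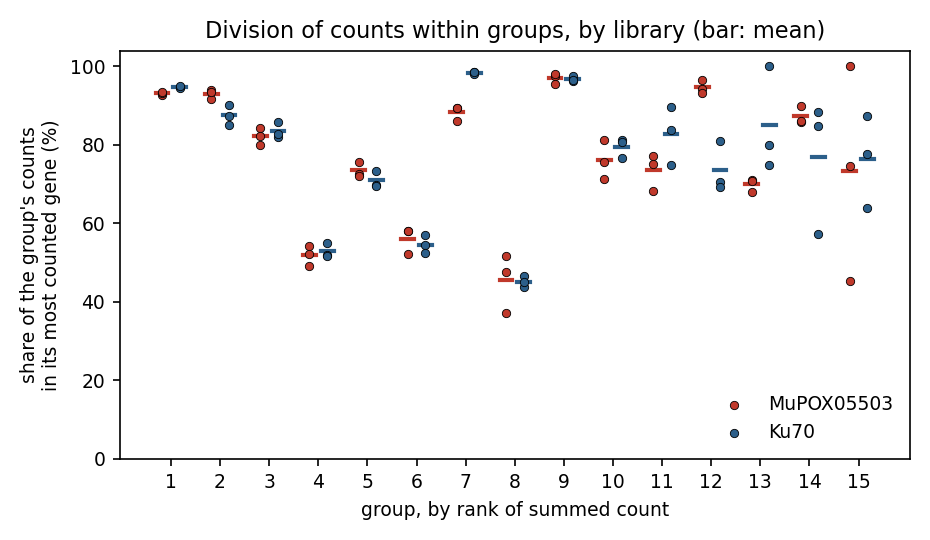
Share of the group's summed count in its most counted gene (%, y axis) for groups 1 to 15 by summed count (x axis), with MuPOX05503 left of Ku70. Points are libraries and bars are means; the strains stand apart in groups 1, 2, 7, 12 and 13 and overlap in the others.

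The 14 members with small decimals were spread over the range of levels and changes. Their mean FPKM ran from 1.89 to 365 and all were tested: 6 passed as higher, 3 as lower and 5 did not pass. The 9 that passed were 64.3% of the 14, against 64.4% of all tested genes (31.9% higher and 32.6% lower). The largest change was in a gene with an FPKM of 426.51, 342.06 and 371.87 in MuPOX05503, against 85.78, 74.89 and 83.70 in Ku70. Every MuPOX05503 library was well above every Ku70 library, and the log2 fold change was 2.11 (SE 0.12, edgeR adjusted p = 2.49e-07). None of the 14 was in a group summed here, so how many of their reads were shared was not tested.

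Of the 25 members with large decimals and no group by the first rule, 20 were tested: 2 passed as higher, 9 as lower and 9 did not pass. Over all tested genes 31.9% were higher and 32.6% lower, and a difference in direction from them was not tested. Of the 25, 12 were numbered 9001 and above, among them 6 of the 9 that were lower. By the looser rule, with groups that shared a gene left out, 7 of the 25 entered 3 groups. Their sums differed by -2.74, -0.56 and -0.01 on the log2 scale (adjusted p by edgeR = 5.91e-07, 0.0302 and 0.978). For the other 18 no sum was formed, so how far their values depend on the division of reads was not tested. The only one with a mean FPKM above 100 had 187 ± 40.5 in MuPOX05503 and 76.6 ± 7.48 in Ku70, and passed as higher (log2 fold change 1.17, SE 0.15, edgeR adjusted p = 8.21e-05).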

How the data were processed

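The authors deposited 1 table per library, which per the file headers holds an expected count and an FPKM value for each gene. The submitters' processing notes list RSEM 1.2.12, Bowtie2 2.1.0, BWA 0.7.10-r789 and DESeq2 without their roles. Not given in the sources used here were build, annotation and strandedness, and reads of a gene and its antisense neighbour may be mixed. The members, the groups to describe and the tests were chosen with earlier results of these data known. Expected counts were rounded before the quasi-likelihood test of edgeR 4.0.16 (R 4.3.3, TMM, strain as the only term, Benjamini-Hochberg adjustment). The fit was checked on simulated data in which most genes were unchanged. Here 64.4% of the tested genes passed, so that check does not cover scaling under so wide a difference. For sums, the group replaced its genes in the table before the same fit. Named members were those with the highest FPKM, the extreme fold changes, and the groups with the highest sums or mixed directions; besides POX01764 and POX05503, at most 2 identifiers that rose and 2 that fell are printed. Alternatives used DESeq2 1.42.0 and limma 3.58.1, other filters, scalings and limits on the decimals. Depth, 13653016 to 14263916 counts per library, limits the low members, and the floor covers counting error only.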

Additional observations from a re-analysis of the deposited data

How the results depend on the processing

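The members past the threshold numbered 34 to 41 when 1 library was left out (7 to 10 sums, 5029 to 5603 genes in all) and 39 to 43 under other scalings, filters and tools. Requiring decimals in at least 1 library gave 381 members, of which 324 were tested and 197 passed (60.8% of those tested). Requiring them in all 6 libraries gave 45 members, of which 44 were tested and 26 passed (59.1%). Both percentages were near the 64.4% of all tested genes. With at least 1 library the members' share of counts was 9.53% in MuPOX05503 and 5.01% in Ku70, and without POX01764 4.13% in MuPOX05503 and 3.001% in Ku70. As a share of summed FPKM it was 13.9% in MuPOX05503 and 6.18% in Ku70. Without POX01764 and POX08949 it was 1.52% of counts in MuPOX05503 and 1.14% in Ku70. These shares changed because other genes or units entered them.

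Of 357 values of named members under alternatives, 12 turned direction, 20 lost their call and 5 gained one (1 in group 3, 4 for the more counted gene of group 6). Among members that had not passed, the second highest by FPKM ranged from -0.066 to 0.13 in log2 fold change when 1 library was left out, and the third gene of its group from -0.021 to 0.10. In group 4 the genes ranged from -0.10 to 0.094 and from -0.019 to 0.14, and the first stood at -0.005 with RLE factors, at -0.0050 with DESeq2 and at -0.00034 with edgeR's own filter. Summing turned the partner of POX08949 to 0.51 and the less counted gene of group 7 to -0.15, because the sum follows the more counted gene.

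Replicate letters in the titles were tried as a replicate block, with 40 members (17 higher, 23 lower) and 5529 genes past the threshold. Deviations from the strain means correlated at 0.004, -0.034 and -0.015 across genes between libraries of the same letter, so the letters were not taken to pair the libraries. A looser rule for groups (whole within 0.025 in at least 5 libraries) found 30 groups with 64 places in them. As 5 genes were in more than 1 group, fewer than 64 separate members were grouped. Genes with small decimals can meet this tolerance whether or not they share reads. After leaving out those that shared a gene, 17 groups were summed, and 10 passed. The group of 4, sums with a library left out, the removal of POX08949 and the number limit of 9001 were chosen after seeing the data. The limits are that low members rest on few reads, that no sequence was compared, and that decimals do not tell how many reads were shared.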
